A study of Mus musculus with 6 samples.

Results

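The genes described here are 43 genes of muscle energy metabolism, 25 of fatty acid oxidation and respiration (oxidative) and 18 of glucose use and glycogen (glycolytic), read in a map of the histone mark H3K9me3. They form a list of symbols drawn up with earlier results of these data known, though no measured value enters the rule, and their regions are those rows of the deposited table that the authors assign to one of the 43 symbols. There are 96 such regions, 58 oxidative and 38 glycolytic, among 202553 regions in all, which carry 16587 symbols. The mark was profiled by CUT&Tag, in which an antibody directs a transposase that cuts and tags the DNA beside the mark, in frozen quadriceps femoris of mice. The 3 Prr14-WT libraries (replicates 3, 4 and 8) and the 3 Prr14-KO libraries (replicates 4, 5 and 7) differ by the Prr14 genotype alone as far as the labels go. The labels give no age, sex, strain, deleted part of Prr14 or control antibody, and do not state that each library is a separate mouse, so p-values measure the spread between these libraries. By its title the series concerns how muscle fibres sense force and keep their type, with MEF2C named, and the comparison asks how H3K9me3 differs at these genes when Prr14 is lost.

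Muscle fibres make ATP by burning fatty acids and pyruvate in mitochondria or by breaking glucose and glycogen down to lactate, and slow and fast fibres differ in the balance between these routes. H3K9me3 is the mark of constitutive heterochromatin: it is read by HP1 proteins, covers repeats and gene clusters that a tissue keeps silent, and is usually sparse over transcribed genes. The Prr14 protein sits at the nuclear lamina and holds HP1-bound heterochromatin there.

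Library totals ran from 4324444 to 4756133 counts. The 96 regions held between 0.0310% and 0.0360% of the counts of the wild-type libraries and between 0.0340% and 0.0395% of those of the knockouts, and they are 0.0474% of all regions. Throughout, values of single libraries are given in the order of replicates 3, 4, 8 for the wild types and 4, 5, 7 for the knockouts. Mitochondrial regions took 0.174%, 0.189% and 0.366% of the wild-type counts. They took 0.146%, 0.248% and 0.612% of the knockout counts, so knockout replicate 7 had the highest share of mitochondrial DNA. H3K9me3 does not identify the tissue: of the 8 muscle fibre genes checked, all had at least 1 region, and so did all 4 endothelial and all 4 fibroblast genes.

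By the authors' symbols, 16 of the 43 genes (37.2%, exact 95% interval 23.0 to 53.3%) had no region assigned to them. Among 21887 protein-coding genes of the RefSeq annotation (GRCm38.p6), 27.7% had none, a share inside that interval. A region inside the span of Gys1, listed below, carries the symbol Ruvbl2. The oxidative genes without a region were Cpt1b, the muscle gate for fatty acid entry into mitochondria, Acadvl, Hadha and Hadhb of beta oxidation, Cs and Sdha of the citric acid cycle, Cox4i1 of complex IV, the fatty acid binding protein Fabp3, and the nuclear receptor Esrra. The glycolytic ones were Gpi1, Pfkm, Pgk1 and Pkm of glycolysis, and Pygm, Gys1 and Phka1 of glycogen breakdown and synthesis. The share was 9 of 25 (36.0%) among oxidative genes and 7 of 18 (38.9%) among glycolytic genes, and their exact 95% intervals overlapped. By role, 4 of 7 beta oxidation genes and 3 of 5 glycogen genes had none, against 1 of 7 genes of the respiratory chain and uncoupling and 0 of 2 genes of glucose entry.

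No member was covered by many regions. The largest number was 11, at Nrf1, which encodes a transcription factor of nuclear genes for mitochondrial proteins, followed by 10 at Pfkfb3, 9 at Hk2, 8 at Pdk4 and 7 at Ugp2. None of the 43 reached 20 regions, while 10.2% of protein-coding genes did and the highest of them had 464. The 10 members with 5 or more regions held 73 of the 96, and 14 members had a single region. Inside the RefSeq span of the gene, 23 of 43 (53.5%) had no region, against 44.9% of protein-coding genes. Per length, the regions of a member held 21.8 (Cpt2) to 66.4 (Aldoa) counts per kb and library, with a median of 38.9. The median of the mean count per library was 12.9 over the 96 regions and 15 over all regions of the table.

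**Figure D1:**
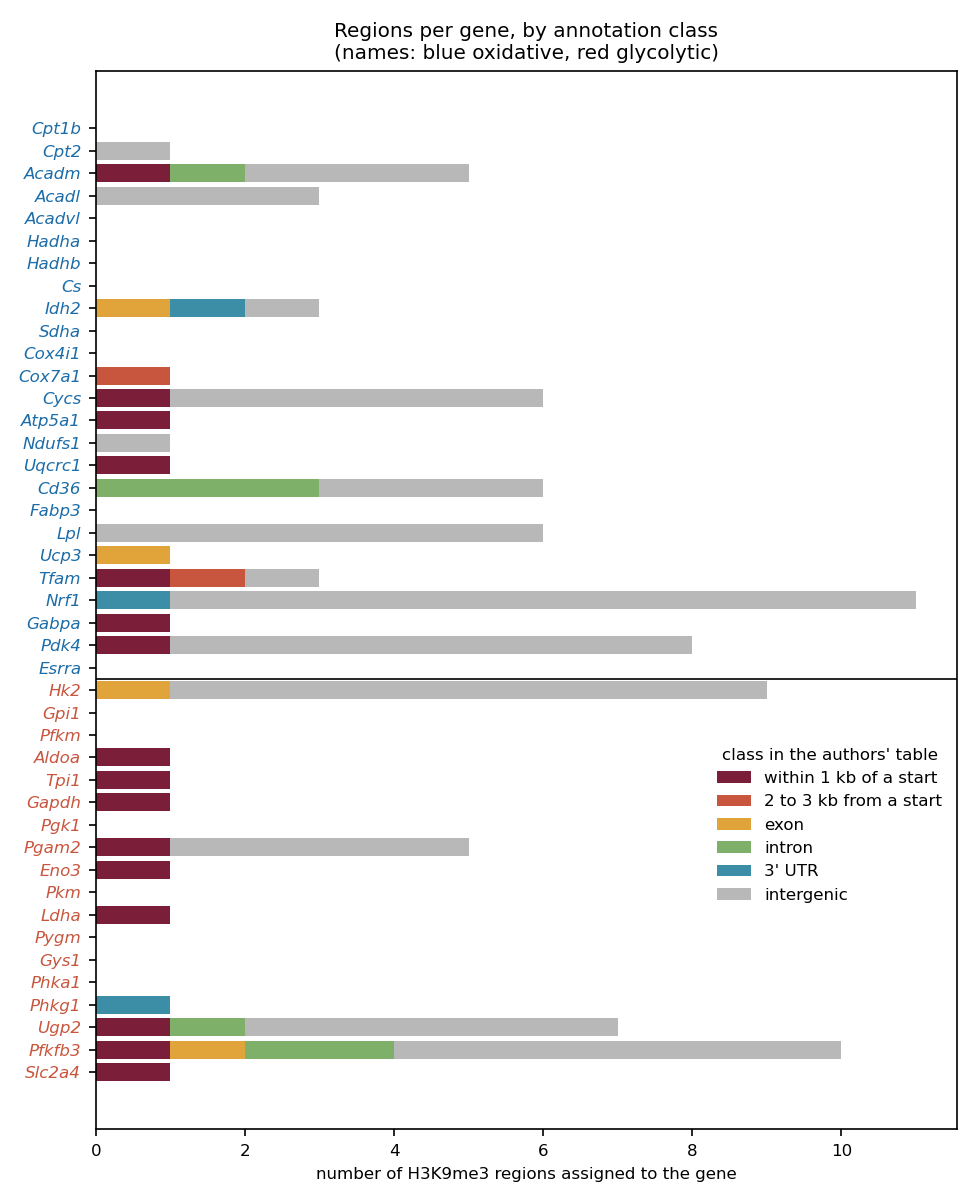
Number of H3K9me3 regions assigned to each of the 43 genes (horizontal axis), coloured by the annotation class in the authors' table; names in blue are oxidative and in red glycolytic. Bars are missing for 16 genes, the longest bars (Nrf1 with 11 and Pfkfb3 with 10) are mostly intergenic, and 16 genes have 1 region within 1 kb of a start site.

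As a share of regions, those of the members lay close to start sites more often than regions in general. Of the 96, 16 (16.7%, exact 95% interval 9.84 to 25.7%) were annotated within 1 kb of a start site, against 3.80% of all regions, and each belonged to a different gene. These were Acadm, Cycs, Atp5a1, Uqcrc1, Tfam, Gabpa and Pdk4 of the oxidative genes, and Aldoa, Tpi1, Gapdh, Pgam2, Eno3, Ldha, Ugp2, Pfkfb3 and Slc2a4 of the glycolytic genes. Another 64 (66.7%) were intergenic, against 68.1% of all regions, 7 were intronic, 4 exonic, 3 in a 3′ UTR and 2 between 2 and 3 kb from a start. The median distance to the start site was 19845 bp, against 86787.5 bp for all named regions, and 24 of the 96 (25%) lay beyond 50 kb, against 61.0%. Counted per gene from the RefSeq start, 13 of the 43 (30.2%) had a region within 1 kb, near the 25.1% of protein-coding genes. For Aldoa, Eno3 and Ldha the nearest region was 1812, 3491 and 4484 bp from that start.

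The start site regions were short. They were 273 bp wide at the median, against 350 bp for all regions of that class. Their mean counts ran from 6.17 to 28.0 per library with a median of 13.1, against a median of 15.5 for the class. Among regions of 500 bp or more, 2 of the 24 assigned to these genes were within 1 kb of a start (8.33%, against 4.32% of all regions of that width): those of Pdk4 and Cycs. No control antibody library was analysed here, so counts from the mark and counts from background cutting at start sites cannot be told apart. Exons of Gapdh, Cycs, Aldoa, Ldha and Tpi1 also have near-identical processed copies elsewhere in the genome, and the sources do not say how reads with several positions were counted, which leaves their values uncertain.

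RefSeq promoter windows, 250 bases before to 50 after a start, were available for 37 of the 43 genes, as 47 windows. A region overlapped 8 of the 47 (17.0%), against 13.4% of 21263 windows of protein-coding genes. The figure for protein-coding windows was 18.5% where the number of CpG was above the median and 8.64% where it was at or below it. Of the 8, 3 start at the end of the annotated gene span, and the 250 bases before their start sites are shown because they differ in CpG content and in how the region lies on them. They come from RefSeq, build GRCm38.p6, are written 5′ to 3′ on the strand of the gene (minus in all cases), and capitals mark each CpG.
Pdk4, chr6:5496279-5496528: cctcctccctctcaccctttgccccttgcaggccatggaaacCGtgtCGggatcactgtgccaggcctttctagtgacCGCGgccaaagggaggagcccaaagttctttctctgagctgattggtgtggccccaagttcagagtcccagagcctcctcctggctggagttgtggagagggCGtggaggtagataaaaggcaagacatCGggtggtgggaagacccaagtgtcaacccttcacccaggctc
Cycs, chr6:50566570-50566819: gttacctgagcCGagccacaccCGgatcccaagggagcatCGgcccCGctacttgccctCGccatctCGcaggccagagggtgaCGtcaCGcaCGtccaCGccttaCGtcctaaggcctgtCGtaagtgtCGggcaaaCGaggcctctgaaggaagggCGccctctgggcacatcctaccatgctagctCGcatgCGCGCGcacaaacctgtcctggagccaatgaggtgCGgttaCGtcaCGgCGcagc
Acadm, chr3:153944644-153944893: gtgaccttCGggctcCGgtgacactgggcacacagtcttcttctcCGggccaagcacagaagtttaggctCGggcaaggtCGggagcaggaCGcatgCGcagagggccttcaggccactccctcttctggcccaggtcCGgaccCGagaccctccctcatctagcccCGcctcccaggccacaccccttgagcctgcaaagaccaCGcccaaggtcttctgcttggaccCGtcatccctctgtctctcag

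The Pdk4 sequence holds 6 CpG in its 250 bases and the Cycs sequence 23, and in both all 250 bases lay inside an H3K9me3 region. The Acadm sequence holds 12 CpG and none of its 250 bases lay in a region, because the region there began 17 bases inside the gene. The 250 bases before the start were also searched on both strands for 5 motifs. The NRF1 core GCATGCGC was found in 2 of the 8 overlapped windows, starting 60 bases before the start of Cycs and 158 before that of Acadm, in 3 of the 47 member windows (6.38%) and in 2.93% of protein-coding windows. The ETS core CCGGAAG, the letters bound by the GABP complex that Gabpa encodes a part of, was found before Tfam (47 bases) and before Gabpa itself (93 bases), in 3 of the 47 member windows (6.38%) and in 8.98% of protein-coding windows. The MEF2 core TAAAAATA was in none of the 8, in 1 of the 47 member windows and in 2.02% of protein-coding windows. The letters TNAAGGTCA, a binding element of oestrogen-related receptors such as Esrra, were in 0 of the 47 and in 0.955% of protein-coding windows. No matches of different motifs overlapped in the 8 windows, and a match describes letters only. The GC box GGGCGG was in 3 of the 8 (Aldoa, Tfam and Ugp2), in 24 of the 47 (51.1%) and in 42.6% of protein-coding windows.

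To compare genes over the same length, counts were also summed over all regions, whatever their symbol, within 100 kb of each start site. Levels are in CPM, counts set relative to the library's total after scaling by TMM, a factor that aligns the bulk of the regions between libraries. The median window held 32.6 CPM over the 43 genes, against 43.5 CPM over protein-coding genes. The oxidative windows had a median of 37.7 CPM (range 4.89 to 158.5 CPM) and the glycolytic ones 19.8 CPM (range 0 to 68.1 CPM). In each of the 6 libraries the median of the oxidative windows (34.0 to 38.7 CPM) was above that of the glycolytic windows (14.3 to 23.9 CPM). Both were below that of protein-coding genes (41.7 to 45.3 CPM). All libraries are read over the same regions and genes, so these medians do not measure the spread between genes. The windows of the glycolytic genes held 7 protein-coding start sites at the median, and those of the oxidative genes 4, as did those of protein-coding genes. In protein-coding genes the share with no region was 12.4% where the window held 1 or 2 start sites and 46.4% where it held 8 to 25. Gene density thus moves with that share. The median window level of the same genes was 49.5 CPM and 39.4 CPM. The part of gene density in the difference between oxidative and glycolytic windows was not tested.

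The lowest windows were those of Pgk1 and Phka1, both on chromosome X, which held no region within 100 kb: the nearest was 110997 bp from the start of Pgk1 and 218373 bp from that of Phka1. Next came Ldha with 3.47 CPM, Ucp3 with 4.89 CPM, Gpi1 with 5.85 CPM, Cs with 6.56 CPM and Eno3 with 8.65 CPM. The highest were Cox7a1 with 158.5 CPM (above 95.1% of protein-coding genes) and Sdha with 140.2 CPM (above 92.8%), followed by Acadm with 100.4 CPM and Cpt1b with 75.1 CPM. Their highest regions were assigned to other genes. In the Cox7a1 window the 4 highest of 16 regions carried the symbols of the zinc finger genes Zfp146 and Zfp382. In the Sdha window the 4 highest of 19 carried those of Ftl1-ps1 and of the zinc finger gene Zfp72, and in the Cpt1b window the highest, with 27.7% of the window's CPM, was at the start of Syce3. Sdha and Cpt1b had no region of their own and lay 13322 bp and 8287 bp from the nearest one. For Cpt1b and Cox4i1 the middle of the gene served as the start, because their strand was not at hand.

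**Figure D2:**
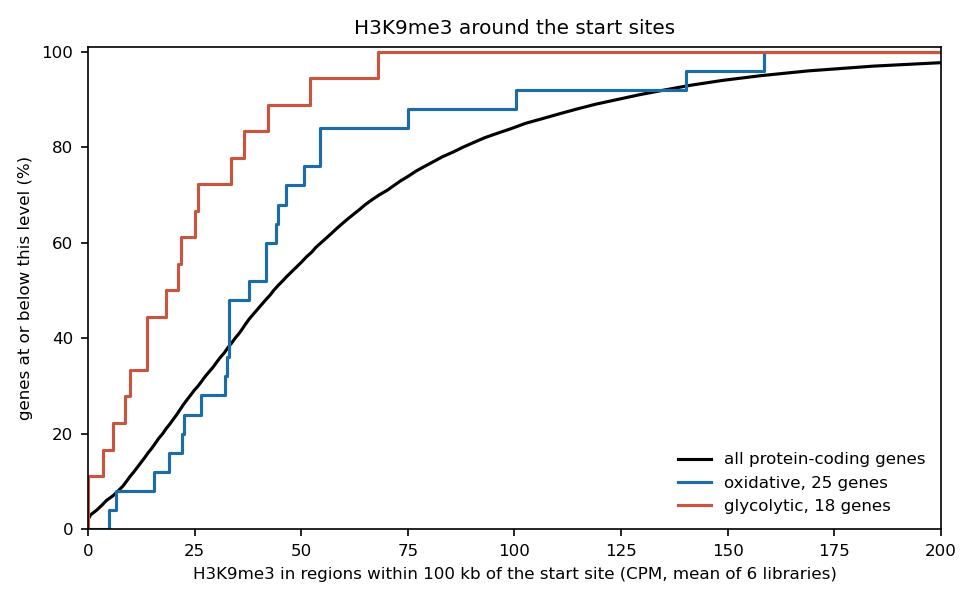
Share of genes (vertical axis, %) whose regions within 100 kb of the start site sum to at most the level on the horizontal axis (mean CPM of 6 libraries), for protein-coding genes (black), the 25 oxidative genes (blue) and the 18 glycolytic genes (red). The glycolytic curve lies left of the others, with a median of 19.8 CPM against 37.7 CPM for the oxidative genes and 43.5 CPM for protein-coding genes.

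Between genotypes, no member passed the test. Counts were tested with edgeR's quasi-likelihood test, with Benjamini-Hochberg adjustment over all features, on sums of the regions of a gene, on single regions, on regions inside the gene span and on the windows around start sites. The members called were 0 of 21 gene sums tested, 0 of 65 regions, 0 of 14 spans and 0 of 41 windows, and DESeq2 and limma-voom also called 0 at each of these levels. Over all features, 0.0393% of gene sums, 0.013% of regions, 0.033% of spans and 0.0812% of windows were called. At these rates, 0 calls among so few members is no result about the members. In whole muscle, fewer cells with the mark and less mark per cell cannot be told apart.

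Without adjustment, 0 member gene sums had a p under 0.05, where 2.06% of all gene sums did so on the higher and 1.51% on the lower side. Of the 65 regions, 2 did so on the higher side (3.08%, against 2.07% of all regions) and 1 on the lower (1.54%, against 1.78%). For spans the count was 0, against 2.48% higher and 1.72% lower in all, and for windows it was 1 higher, that of Gpi1 (2.44%), against 2.02% higher and 1.26% lower in all. These shares were near the background.

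The median standard error of a log2 change was 0.26 for a member's gene sum, 0.48 for a single region and 0.18 for a window. The summed CPM of the oxidative regions was 210.4, 189.1 and 220.9 for the wild types, and 211.5, 220.7 and 241.1 for the knockouts. The groups overlapped, with means of 207 ± 16.2 and 224 ± 15.1 CPM (SD, n = 3). The glycolytic regions summed to 120.1, 125.9 and 136.5 CPM in the wild types and to 139.2, 130.3 and 148.2 CPM in the knockouts, and these also overlapped, with means of 128 ± 8.33 and 139 ± 8.98 CPM. The difference, as log2 of knockout over wild type, was 0.12 for the oxidative and 0.13 for the glycolytic sum, and neither set separated the genotypes. Among the sums by role and annotation class, which overlap in their regions, 6 had all knockouts higher and 1 all lower. The 64 intergenic regions summed to 236.2, 218.8 and 244.2 CPM in the wild types and to 257.6, 247.3 and 254.8 CPM in the knockouts, without overlap (log2 0.12). The regions of the fatty acid uptake genes summed to 35.8, 36.5 and 33.6 CPM against 37.9, 40.8 and 42.1 CPM, also without overlap (log2 0.19). These sums were picked after their values were seen and were not tested. Some of the separated sums contain each other, and no share of such sums over other genes was computed. The count of 6 against 1 therefore gives no direction.

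More member values lay above 0 than below on the log2 scale. This was so for 15 of 21 gene sums (71.4%, median 0.13), 48 of 65 regions (73.8%, median 0.19), 8 of 14 spans (median 0.09) and 26 of 41 windows (63.4%, median 0.07). Over all features tested, 50.4% of gene sums, 50.3% of regions, 50.5% of spans and 50.9% of windows lay above 0, with medians of 0.00. Regions of 1 gene are not independent of each other, and all comparisons share the 6 libraries. Without knockout replicate 7, the library with the most mitochondrial DNA, 11 of 23 gene sums lay above 0 (47.8%, median -0.02), 46 of 77 regions (59.7%, median 0.10) and 23 of 41 windows (56.1%, median 0.07). Without wild-type replicate 4 the shares were 54.5%, 59.7% and 58.5%. Of all tested regions within 1 kb of a start, 57.7% lay above 0 (median 0.084), and of the 9 tested member regions of that class 5 did.

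**Figure D3:**
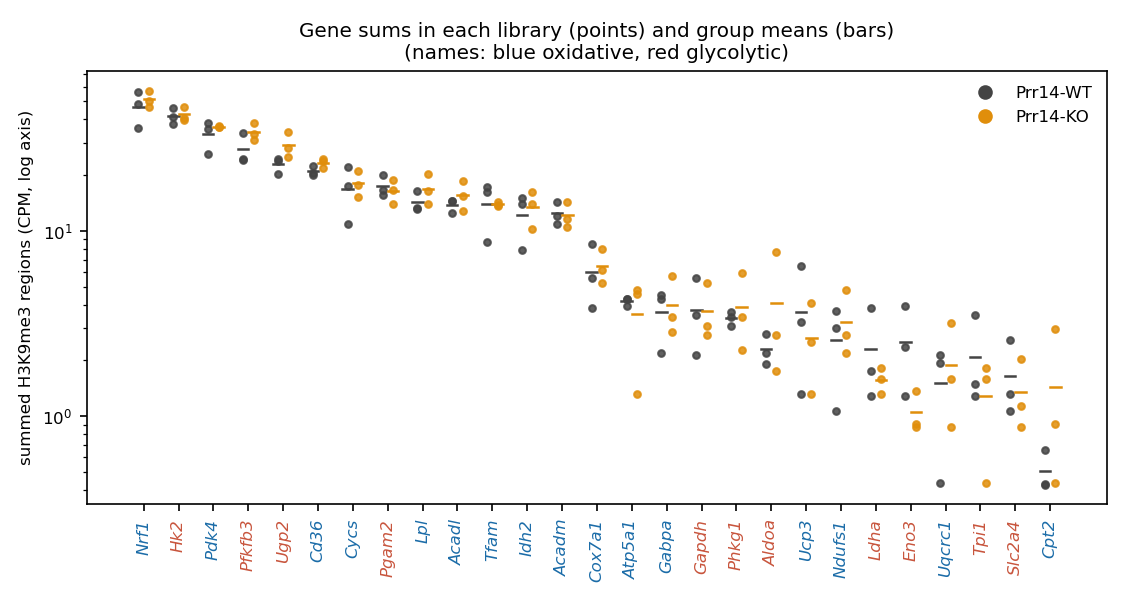
Summed H3K9me3 of the regions of each of the 27 genes with a region, in CPM on a log axis, with 1 point per library and a bar at each group mean (grey Prr14-WT, orange Prr14-KO; names in blue oxidative, in red glycolytic). The genotypes overlap in every gene except Ugp2, where the 3 knockouts lie above the 3 wild types.

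Among oxidative genes, Cd36, the fatty acid transporter of the cell surface, summed to 105, 92 and 96 counts over 6 regions in the wild types and to 109, 107 and 96 in the knockouts. Its scaled level was 21.1 ± 1.29 against 23.4 ± 1.33 CPM (log2 0.15, SE 0.20). At the intergenic region chr5:17751380-17751768 (GRCm38, as for all positions) the counts were 19, 19 and 20 against 24, 26 and 22, with the knockouts all higher. The log2 change there was 0.39 (SE 0.41). Lpl, which releases fatty acids from circulating lipid, had 6 regions, all outside the gene, with sums of 62, 75 and 61 counts against 64, 72 and 89 (log2 0.25, SE 0.24). The wild types and knockouts overlapped for each gene sum, while the 2 genes together gave the separated fatty acid uptake sum.

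In beta oxidation, Acadm and Acadl, dehydrogenases for medium and long chain fatty acids, summed to 12.4 ± 1.74 and 13.8 ± 1.18 CPM in the wild types and 12.1 ± 1.99 and 15.6 ± 2.94 CPM in the knockouts. Neither gene sum separated the groups. The raw counts of the window around Acadl overlapped, with 150, 157 and 169 in the wild types and 186, 167 and 202 in the knockouts. After scaling this window separated the groups, with 32.2, 34.0 and 35.9 CPM against 40.6, 37.8 and 45.7 CPM. Its means were 34.0 ± 1.87 and 41.4 ± 4.02 CPM (log2 0.28, SE 0.17). Around Acadm the window held 95.6 ± 1.98 against 105 ± 4.51 CPM (log2 0.14, SE 0.10), also without overlap only after scaling. Most of it belonged to other genes. Hadha and Hadhb, the paired subunits of the trifunctional protein, share their promoter stretch and hence a window of 54.5 CPM. Cpt2, the inner membrane partner of Cpt1b, had 1 region of 2, 3 and 2 counts against 2, 13 and 4, too few to test.

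Pdk4, the kinase that shuts the pyruvate dehydrogenase gate when fatty acids are burned, carried 8 regions, 7 of them intergenic and on both sides of the gene. Its gene sum was 179, 162 and 121 counts in the wild types and 166, 159 and 162 in the knockouts, 33.2 ± 6.53 against 36.5 ± 0.35 CPM (log2 0.14, SE 0.17). The region over its start, chr6:5495945-5496582, held 29, 21 and 25 counts against 18, 32 and 31, so the groups overlapped there. The 2 regions farthest upstream went opposite ways. At chr6:5605628-5605807 the counts were 5, 10 and 4 against 20, 18 and 11, which differ by log2 1.42 (SE 0.64, edgeR adjusted p = 0.998). At the next region, chr6:5607143-5608011, they were 45, 45 and 38 against 29, 21 and 31, which differ by log2 -0.58 (SE 0.32, edgeR adjusted p = 0.998). Idh2, of the citric acid cycle, had 3 regions with 65, 36 and 70 counts against 47, 61 and 71. The regions annotated to its exon and 3′ UTR lay outside the RefSeq span of the gene.

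In the respiratory chain, Cycs, which encodes cytochrome c, had a region of 751 bp over its start site at chr6:50566230-50566980. Its counts were 14, 25 and 27 in the wild types and 34, 20 and 48 in the knockouts, 4.71 ± 1.57 against 7.66 ± 3.24 CPM (log2 0.70, SE 0.36, edgeR adjusted p = 0.998). The groups overlapped, and knockout replicate 7 held the highest value. Its gene sum over 6 regions changed by 0.10 (SE 0.23). Atp5a1, the alpha subunit of ATP synthase, had a single start site region with 20, 18 and 20 counts against 6, 21 and 20, so only knockout replicate 4 was low (log2 -0.23, SE 0.55). Ucp3, the uncoupling protein of muscle, had an exonic region with 30, 6 and 15 counts against 6, 11 and 18 (log2 -0.47, SE 0.62). Uqcrc1 of complex III held 9, 2 and 10 counts against 4, 14 and 7, and Cox7a1, the muscle form of a complex IV subunit, 18, 39 and 26 against 28, 23 and 35.

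Of the genes of mitochondrial transcription, Nrf1 had the highest gene sum of all members, 46.7 ± 10.1 CPM in the wild types and 51.3 ± 5.13 CPM in the knockouts (log2 0.13, SE 0.15), at 49.5 counts per kb and library. Of its 11 regions, 10 were intergenic and lay on both sides of the gene, and 1 was in the 3′ UTR. Tfam, which packages mitochondrial DNA and helps start its transcription, summed to 80, 40 and 76 counts against 63, 60 and 63. The wild types thus spread more widely than the knockouts. Gabpa, whose product binds the ETS core, had 1 start site region with 20, 10 and 21 counts against 13, 15 and 25. Its span also held a 3′ UTR region assigned to Atp5j.

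Among glycolytic genes, Ugp2 was the only member whose gene sum separated the genotypes, against 4.3% of all gene sums with the knockouts higher and 4.19% with the knockouts lower. Its product makes UDP-glucose, the building unit of glycogen. Over 7 regions it summed to 95, 112 and 111 counts in the wild types and to 156, 110 and 123 in the knockouts. After scaling this was 22.9 ± 2.19 against 29.1 ± 4.67 CPM (log2 0.35, SE 0.19, edgeR adjusted p = 1.00). The intronic region chr11:21333339-21333512 had 0, 0 and 0 counts in the wild types and 4, 2 and 15 in the knockouts. Set against a floor of 3 wild-type counts over the group, the knockout counts give 7.39-fold, and 3.13-fold without knockout replicate 7. The knockout counts are taken as they stand, without their own error, so neither value is a lower limit. With 0 wild-type counts the region is listed through the knockouts alone, and it was picked after its values were seen, so the fold is a description. The region over its start, chr11:21370563-21370788, had 3, 2 and 4 counts against 5, 8 and 18, and knockout replicate 7 was again highest. Both were too thin for the count filter. With every region tested that had any count, the intronic region had an edgeR adjusted p of 0.978. In the authors' deposited table the log2 fold changes of the intronic and start site regions are 5.24 and 1.79, and the table gives no adjusted p for either.

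The remaining Ugp2 regions were intergenic. The widest, chr11:21393831-21395504, held 38, 52 and 70 counts against 89, 54 and 46, so knockout replicate 4 was high there and not replicate 7. Pfkfb3, which makes the activator of phosphofructokinase, summed over 10 regions to 114, 111 and 158 counts against 142, 168 and 147, 27.5 ± 5.46 against 34.3 ± 3.63 CPM (log2 0.32, SE 0.18, edgeR adjusted p = 1.00). Wild-type replicate 8 lay within the knockouts. Hk2, the hexokinase of muscle, had 9 regions and a gene sum of 41.7 ± 4.24 against 42.5 ± 3.83 CPM (log2 0.03, SE 0.15). Slc2a4, the insulin-regulated glucose transporter, had 1 region at its start with 5, 6 and 12 counts against 4, 5 and 9.

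Of the enzymes of glycolysis, Pgam2, the muscle phosphoglycerate mutase, had 5 regions and 17.5 ± 2.35 against 16.5 ± 2.48 CPM (log2 -0.08, SE 0.23). A pair of its intergenic regions went opposite ways. At chr11:5816031-5816961 the counts were 35, 31 and 52 against 24, 17 and 23, with the knockouts all lower (log2 -0.80, SE 0.35, edgeR adjusted p = 0.998). At the neighbouring chr11:5817675-5818216 they were 15, 19 and 17 against 39, 17 and 26 (log2 0.75, SE 0.41). Aldoa held 13, 10 and 9 counts against 8, 12 and 34 at its start site: knockout replicate 7 alone was high, and the log2 change of 0.81 (SE 0.62) was -0.038 without it. Gapdh held 10, 16 and 26 against 14, 12 and 23 (log2 -0.02, SE 0.56). Tpi1, Eno3 and Ldha each had 1 region at a start site with at most 18 counts in any library, and were not tested.

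For glycogen breakdown, Phkg1, the catalytic subunit of phosphorylase kinase in muscle, had 1 region annotated to a 3′ UTR with 17, 14 and 16 counts against 27, 10 and 15. Its window, with 8.52 ± 0.56 against 11.3 ± 2.74 CPM, was one of 4 whose groups did not overlap, with those of Acadl, Acadm and Ugp2. All 4 were higher in the knockouts (9.76% of 41 windows, against 3.96% of all windows higher and 3.82% lower). They separated only after scaling, as the raw counts overlapped or tied. The Ugp2 window had the same counts as the Ugp2 gene sum and is no second observation of it. These 4 windows therefore give no direction. The window of Gpi1, the second enzyme of glycolysis, held only 3 regions, none assigned to it, with 16, 9 and 29 counts against 23, 37 and 45 (log2 1.02, SE 0.46, edgeR adjusted p = 1.00), and the groups overlapped. Gys1, muscle glycogen synthase, had 1 region in its span, assigned to Ruvbl2, with 12, 15 and 16 counts against 17, 17 and 14. Among the 65 single regions tested, 2 had all knockouts higher (Cd36 and Pdk4) and 2 all lower (Pdk4 and Pgam2), 3.08% each way, against 4.7% and 4.91% of all regions. Among the 31 too thin to test, 4 had all knockouts higher (1 of Cycs, 1 of Pfkfb3 and the 2 of Ugp2 above) and 0 all lower. The share over all untested regions was not counted, so these 4 are no result about direction. Among the 14 spans tested there was none in either direction, against 4.65% and 4.68% of all spans.

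**Figure D4:**
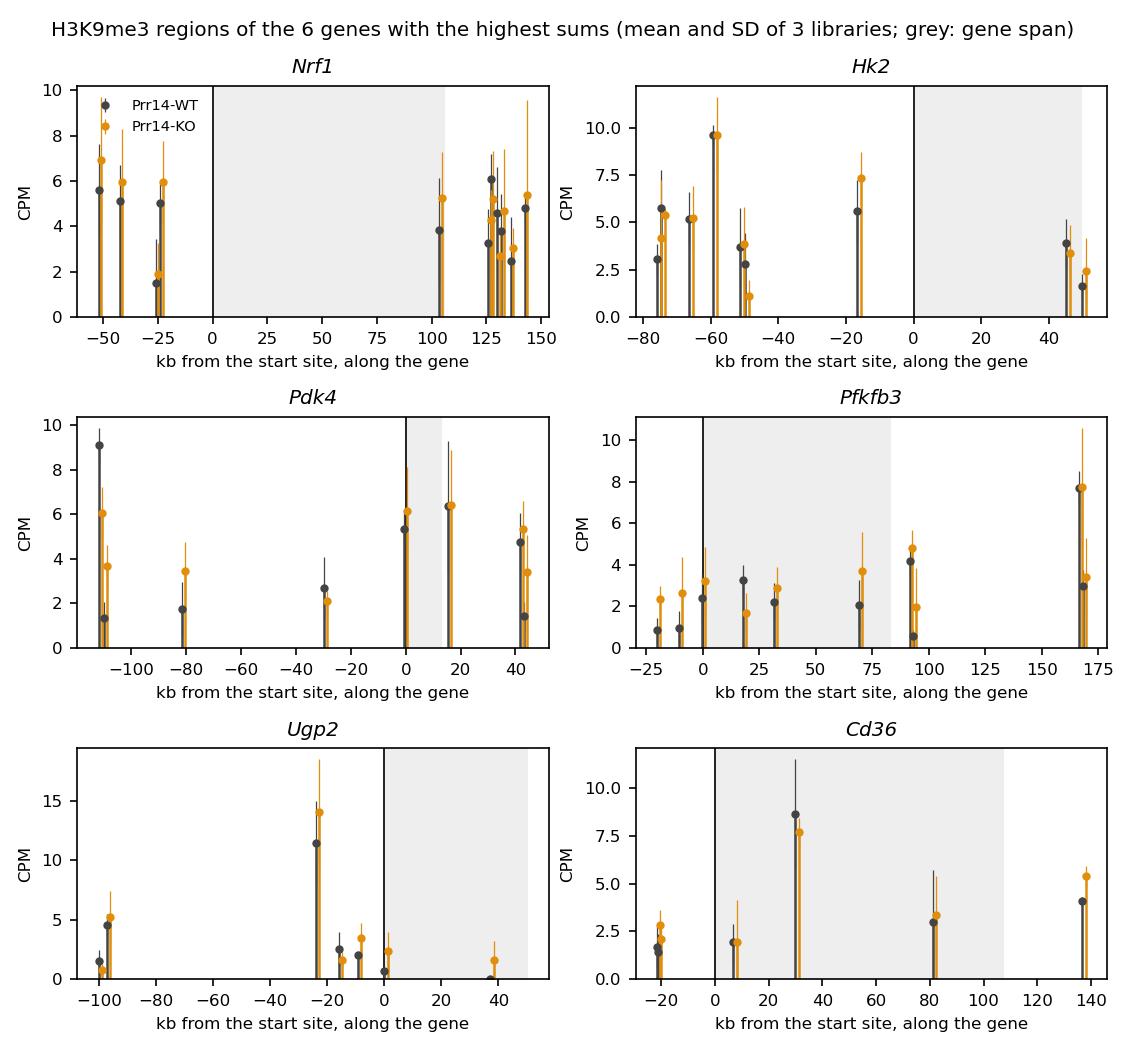
H3K9me3 at each region of the 6 genes with the highest sums, by distance from the RefSeq start site along the gene (kb, horizontal axis) and level (CPM, vertical axis, mean with SD of 3 libraries per genotype; grey points Prr14-WT, orange Prr14-KO; shading marks the gene span). Nrf1 and Hk2 have most of their regions outside the gene, the 2 farthest upstream regions of Pdk4 go opposite ways, and the Ugp2 regions at the start and in the intron are close to 0 in the wild types.

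**Figure D5:**
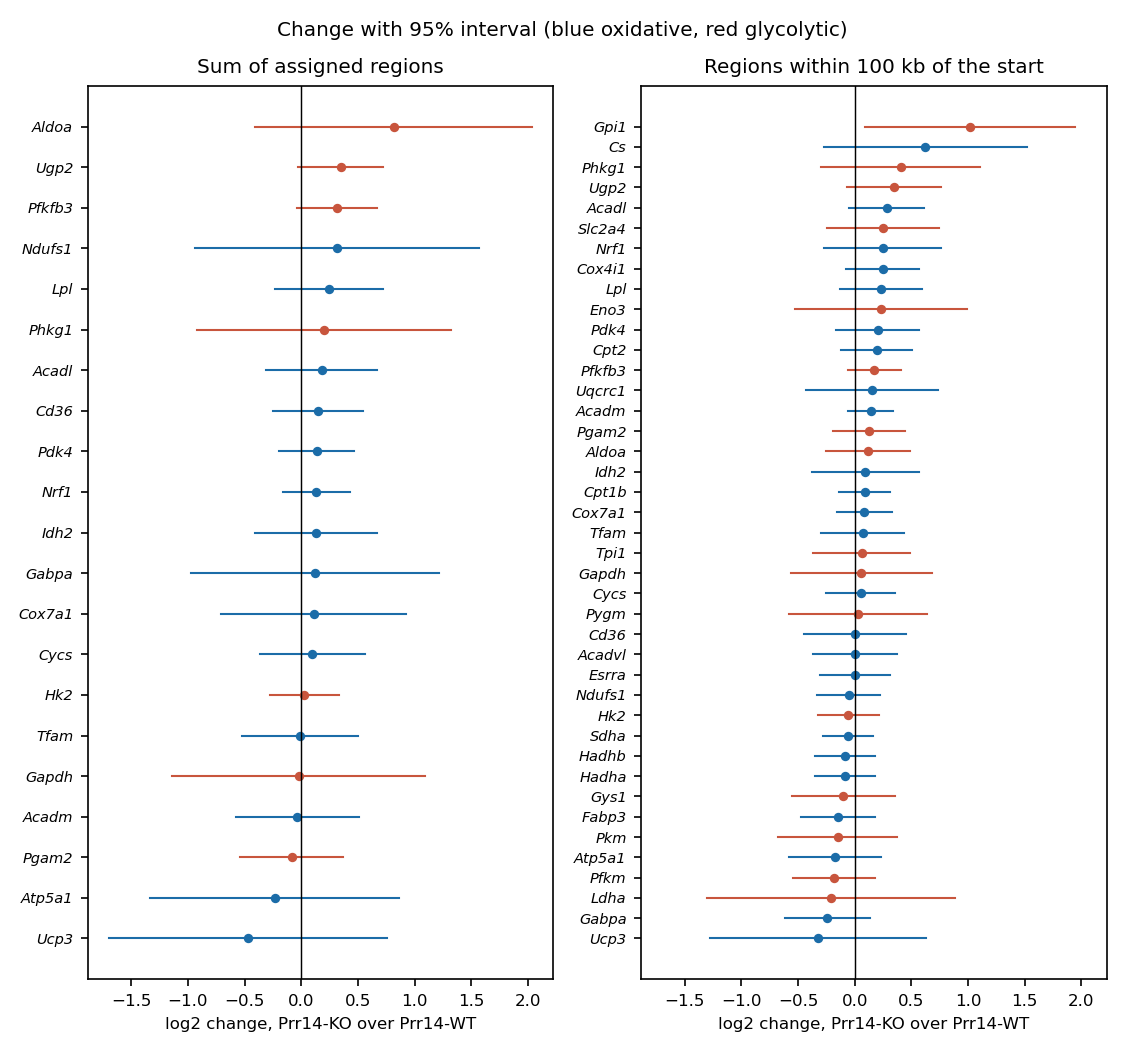
Log2 change of knockout over wild type with its 95% interval for the 21 gene sums (left) and the 41 start site windows (right) that were tested, blue for oxidative and red for glycolytic genes. The intervals of all 21 gene sums contain 0, as do those of the windows except Gpi1; none passed after adjustment.

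Of 82 other oxidative genes, 32 had no region (39.0%), 43 gene sums were tested and 0 were called. Unadjusted, 4 had a p under 0.05, all higher in the knockouts: Mpc1, a subunit of the mitochondrial pyruvate carrier, with 8.69 ± 1.18 against 15.8 ± 2.87 CPM (log2 0.86, SE 0.28, edgeR adjusted p = 1.00), Ndufa9 of complex I (log2 0.50), Fh1 of the citric acid cycle (log2 0.40) and Polg, the mitochondrial DNA polymerase (log2 0.39). Such a p was found on the higher side for 2.06% of all gene sums and on the lower for 1.51%. The counts at Mpc1 were 37, 37 and 47 in the wild types and 59, 82 and 70 in the knockouts, so they did not overlap. Of the 43, 4 gene sums had all knockouts higher and 2 all lower, against 4.3% and 4.19% of all gene sums. Of 37 other glycolytic and glycogen genes, 9 had no region (24.3%), 25 were tested and 0 called. Pfkl, the liver form of phosphofructokinase, had an unadjusted p under 0.05, with 23, 19 and 24 counts against 24, 41 and 47 (log2 0.82, SE 0.40). Over their spans Pgm2 (log2 1.22, SE 0.60) and Prkaa2 (log2 0.64, SE 0.26) did too, as did 2.48% of all spans on the higher side.

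The highest sums in these lists came mostly from regions outside the genes. Ndufa4, of the respiratory chain, was assigned 184 regions and 954 CPM, but none lay in its span, and the same held for the 43 regions of Atp5g3, a subunit of ATP synthase. Gbe1, Epm2a and Ppp1r3a, which shape glycogen or bind the phosphatase that acts on it, were assigned 108, 84 and 61 regions, of which 19, 11 and 2 overlapped the gene.

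Related enzymes used mainly in other tissues were listed for comparison. Of 32 such genes, 6 (18.8%, exact 95% interval 7.21 to 36.4%) had no region, against 16 of 43 muscle genes (23.0 to 53.3%), and the intervals overlapped. Pfkp, the platelet phosphofructokinase, was assigned 106 regions and 451 CPM while Pfkm had none. Pdha2, the testis form of a pyruvate dehydrogenase subunit, had 122 regions, 1 of them in its span. Cox7b2 had 34, Slc2a2, the liver glucose transporter, 14 while Slc2a4 had 1, and Pgk2, the testis phosphoglycerate kinase, 7 while Pgk1 had none. Pklr, Hk3, Ldhc, Slc2a3, Phkg2 and Cyct had none, while Hk2 had 9, Cycs 6, and Ldha and Phkg1 1 each. The pairs thus went both ways, and they were picked after their values were seen. Of the 21 tested, 0 were called.

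Contractile genes of slow and fast fibres had 8 of 11 and 10 of 15 with a region. Myh7, the slow myosin heavy chain, held 35, 38 and 29 counts in the wild types and 17, 16 and 17 in the knockouts (log2 -0.96, SE 0.44, edgeR adjusted p = 1.00). Of the 7 slow and 6 fast genes tested, it was the only one with an unadjusted p under 0.05. In all, 1 of the 7 slow genes (median log2 -0.13) and 5 of the 6 fast genes (median 0.11) lay above 0. Over all gene sums tested, 50.4% did, and with 7 and 6 genes these counts give no direction. Of the 8 muscle fibre marker genes, 3 lay above 0 (median -0.089). Mb, myoglobin, was the only one of these 8 with an unadjusted p under 0.05, with 104, 98 and 98 counts against 134, 119 and 124 (log2 0.39, SE 0.19, edgeR adjusted p = 1.00). The shares with such a p over all gene sums were 2.06% higher and 1.51% lower.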

How the data were processed

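H3K9me3 CUT&Tag was compared between 3 Prr14-WT and 3 Prr14-KO libraries of mouse quadriceps femoris, grouped by the genotype label. Tools listed in the submitters' processing notes are BWA, Trimmomatic, bedtools, deepTools, MACS2 and DESeq2 1.6.3, with the build GRCm38 and no settings. The sources do not give the counting base of positions (printed as deposited) or whether libraries were pooled to call regions. Per the file headers, the deposited table holds a raw count per region and library, a normalised signal, a log2 fold change, a p-value and adjusted p-value, and a score. Only the counts were tested. In the authors' deposited table, 4 of the 96 regions of these genes have a p under 0.05, and 3.91% of all regions do. An adjusted p is given for 70 of the 96, and 0 of these are under 0.05.

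Counts were tested in edgeR 4.0.16 (R 4.3.3): filterByExpr (minimum count 10, total 15), TMM, robust quasi-likelihood fit, Benjamini-Hochberg adjustment over all features at each level, threshold 0.05. Gene sums used the authors' symbols, and 681 regions without a symbol were left out of them. Standard errors came from the log2 change and its F statistic. Totals of 4324444 to 4756133 counts limit the precision. Exact (Clopper-Pearson) intervals cover counting error only, and the floor used for Ugp2 covers that of the wild-type counts alone. No spike-in is named, so a uniform change is scaled away. Fits were tested on simulated data. Alternatives were RLE factors, library totals, DESeq2 1.42.0, limma-voom (limma 3.58.1), other count filters, an adjusted p of 0.10, genic regions only, other windows and spans, regions of 500 bp or more, and leaving out each library.

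The genes and lists were chosen with earlier results of these data known. Genes given in full were those with a genic region or a region in the span, the 4 highest CPM of each set, those with an unadjusted p under 0.05 or groups that did not overlap at any level, and the 3 largest changes each way. From other lists they were genes with an unadjusted p under 0.05 and up to 3 of the highest CPM. The regions of Ugp2, Pdk4 and Pgam2 described singly, the isozyme pairs and the windows broken down by symbol were picked after their values were seen.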

Additional observations from a re-analysis of the deposited data

How the results depend on the processing

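No member was called at any level under any alternative run. Of the calls, counts and sums, 127 values stayed within their limits and 10 moved. Leaving out 1 library at a time, the number called over the whole table was 6 to 18 for gene sums (6 with all libraries), 5 to 12 for spans (6) and 34 to 77 for windows (39), with each highest value without knockout replicate 4. Spans with 5 kb added gave 10, and limma-voom called 13 regions in place of 20. Members with no region went from 16 to 29 with regions of 500 bp or more, and to 4, 2 and 0 when any region within 50, 100 or 250 kb of the start was counted. The share of member regions within 1 kb of a start went from 16.7% to 8.33% with regions of 500 bp or more.

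The changes of 16 of the gene sums described changed sign under some alternative, those of Aldoa (0.81) and Ucp3 (-0.47), the largest in each direction, among them, and the cause was not tested. With promoter and genic regions only, log2 was 0.18 for Acadm, -0.10 for Cd36, -0.26 for Hk2 and 0.075 for Tfam. With limma-voom it was 0.045 for Tfam and 0.021 for Gapdh. Leaving out 1 library at a time, log2 ran from -0.17 to 0.074 for Acadm, -0.10 to 0.29 for Idh2, -0.13 to 0.45 for Cox7a1, -0.14 to 0.34 for Cycs, -0.51 to 0.15 for Atp5a1, -0.93 to 0.21 for Ucp3, -0.26 to 0.15 for Tfam and -0.022 to 0.27 for Nrf1. It ran from -0.22 to 0.31 for Gabpa, -0.023 to 0.25 for Pdk4, -0.048 to 0.10 for Hk2, -0.038 to 1.17 for Aldoa, -0.36 to 0.37 for Gapdh, -0.20 to 0.022 for Pgam2 and -0.25 to 0.46 for Phkg1. Over the alternatives in which they were tested, Acadl (0.025 to 0.30), Ugp2 (0.21 to 0.44) and Pfkfb3 (0.15 to 0.48) stayed above 0. Acadl and Ugp2 were not tested with promoter and genic regions only.

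The share of member values above 0 was examined after seeing the data. It ran from 47.8% to 81.0% for gene sums, 59.7% to 76.7% for regions and 56.1% to 70.7% for windows, and was lowest without knockout replicate 7 at each level, equal to that without wild-type replicate 4 for regions. At a median standard error of 0.48 for a member region, small changes were not detectable at this depth. No paired analysis was possible because the genotypes share only replicate number 4.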

Other observations

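Genes that mark other cells of muscle were read in the same way, and 0 were called. Dcn, a matrix proteoglycan of fibroblasts, had 112 ± 4.19 CPM in the wild types and 95.7 ± 11.7 CPM in the knockouts over 22 regions (SD, n = 3), and its log2 change was -0.23 (SE 0.10). Acta2, the smooth muscle actin, had 1 region with 14, 12 and 20 counts in the wild types and 4, 4 and 9 in the knockouts, without overlap. All knockouts were lower in 4.19% of all gene sums, and 0 of the 2 smooth muscle genes tested had an unadjusted p under 0.05. Of the 4 fibroblast genes tested, 0 lay above 0 on the log2 scale (median -0.12), and of the 2 smooth muscle genes 0 did. Above 0 were 3 of 4 endothelial, 3 of 3 immune and 2 of 2 Schwann cell genes. The same held for 1 of 3 satellite cell and 1 of 3 adipocyte genes. Over all gene sums tested, 50.4% lay above 0, and lists of so few genes give no direction. The part of these cells in the values of the metabolic genes was not tested.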
